A study of Homo sapiens with 8 samples.

Results

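The comparison described here asks what an inhibitor of the mTOR kinase did to gene expression in cholangiocarcinoma (CCA) cells that were also given a BET degrader. It sets the combination (BETp + mTORi) against BETp alone within each of 2 human CCA cell lines, SNU1079 and SSP25, and so rests on 4 of the 8 samples of the series. ARV825, given at 40 nM and called BETp, brings BET bromodomain proteins and the ubiquitin ligase cereblon together so that the former are degraded. The mTOR kinase inhibitor AZD8055 was given at 50 nM (mTORi), and 0.01% DMSO served as vehicle. The labels give no doses for the combination. All cells were treated for 48 h in high-glucose medium and carry no engineered change per the labels. Each line and treatment had 1 library from 1 culture, so the 2 lines served as the replicates of the comparison. The p-values set the mean difference of the 2 lines against how far the lines disagreed over all 4 treatments. In that disagreement, line-specific responses and library noise cannot be told apart. The other 4 libraries, vehicle and mTORi alone in the same lines, served to estimate the spread and to ask whether mTORi acted otherwise without BETp.

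mTOR is a kinase that adjusts growth to nutrients. As part of complex 1 it drives the translation of mRNAs that begin with a run of pyrimidines, the terminal oligopyrimidine (TOP) mRNAs, which encode ribosomal proteins and elongation factors. It also raises the output of ATF4, a transcription factor for serine and asparagine synthesis, amino acid transport and tRNA charging, and it is held back by proteins such as DDIT4, the sestrins and the TSC complex. BET proteins read acetylated histones and help RNA polymerase II to elongate, and MYC is a known target of theirs in many tumours. Serine synthesis runs from a glycolytic intermediate through PHGDH, PSAT1 and PSPH and feeds the folate cycle.

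Sequences are shown here for 2 kinds of element, known from ATF4 targets and from TOP mRNAs. Their part in the results was not tested. The sequences come from RefSeq promoter windows on GRCh38.p14 (250 bases before to 50 after the annotated start). Windows were matched by symbol for 10417 of the 16060 genes tested. ASNS and CHAC1, both among the genes with the largest shared lower values, held the letters TGATGNAAN, the form of the element that binds ATF4 with C/EBP partners. It was searched on both strands over the whole window and is in capitals in the 100 bases shown. The ASNS window is chr7:97872423-97872522 on the minus strand, and the CHAC1 window is chr15:40953221-40953320 on the plus strand, where the match lies on the opposite strand.
ASNS: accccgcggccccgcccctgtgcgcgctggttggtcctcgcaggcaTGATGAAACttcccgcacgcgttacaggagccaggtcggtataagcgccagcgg
CHAC1: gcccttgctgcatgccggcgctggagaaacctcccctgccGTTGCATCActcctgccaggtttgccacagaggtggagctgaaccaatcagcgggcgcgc
These letters stood in 1.61% of the windows of all genes tested, in 3 of 17 windows of the integrated stress response list, in 3 of 10 of the asparagine, proline and aspartate list and in 1 of 14 of the serine and one-carbon list. Only windows with a match are printed, and the windows of DDIT4 and PSAT1, also among the genes with the largest shared lower values, held no match. A match is a description of letters and not of a bound site.

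The second element is the pyrimidine run at the start of TOP mRNAs, searched as a C followed by at least 4 C or T within 5 bases of the annotated start on the gene's own strand. The 6 members of the ribosomal protein and TOP lists with such a run and the highest difference between combination and BETp are shown over 15 bases before and 15 after the start, with the run in capitals as far as the window reaches. They lie at chr13:45341169-45341198 (TPT1, minus strand), chr6:73521018-73521047 (EEF1A1, minus), chr2:101002274-101002303 (RPL31, plus), chr17:8383179-8383208 (RPL26, minus), chr12:53006441-53006470 (EIF4B, plus) and chr15:66504841-66504870 (RPL4, minus). DDIT4 at chr10:72273909-72273938 (plus) and PSAT1 at chr9:78297110-78297139 (plus) are shown for contrast as genes that stood lower.
TPT1: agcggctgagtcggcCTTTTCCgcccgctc
EEF1A1: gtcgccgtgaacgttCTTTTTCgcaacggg
RPL31: acaatccttcgcgctCTTCCTTTCCaactt
RPL26: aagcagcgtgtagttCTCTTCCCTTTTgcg
EIF4B: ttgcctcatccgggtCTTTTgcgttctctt
RPL4: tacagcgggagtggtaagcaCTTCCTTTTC
DDIT4: cgctggtgctagggcgcagcaggccaaggg
PSAT1: ggttcggggccggctgcagaCTCTCaccgc
A run was found in 51 of 63 ribosomal protein windows (81%), in 10 of 14 windows of the other TOP mRNAs (71.4%) and in 7 of 11 of the snoRNA host genes (63.6%), against 22.7% of the windows of all genes tested. PSAT1 shows that such a run also occurs outside these lists.

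Values are TPM, the share of transcripts scaled to one common total per library, which correct for gene length and for the library total but keep no read depth, so the depth of each library and the counting error of low values are unknown. Differences are of log2(TPM + 1), combination minus BETp, which understates the change of low genes. Of 56269 genes in the tables, 16060 had at least 1 TPM in at least 2 libraries and were tested. In bulk RNA, fewer cells of a type and less RNA per cell cannot be told apart. The cells had the keratins of bile duct epithelium: KRT7, KRT8, KRT18 and KRT19 stood at 293 TPM or more in all 8 libraries, the lowest being KRT18 in SSP25 cells given mTORi. CFTR, a chloride channel of bile duct cells, stayed below 0.3 TPM in both lines. The summed hepatocyte markers (10 genes, with APOB at 0 throughout) reached 64.4 TPM in SNU1079 and 1.11 TPM in SSP25. Of 14 fibroblast, endothelial and immune markers, PTPRC was below 0.3 TPM throughout, while COL1A1 stood at 546 TPM (BETp) and 272 TPM (combination) in SNU1079. CD68, listed as an immune marker, stood at 77.2 and 76.4 TPM in SNU1079. In SSP25 it went from 141 to 180 TPM and made up most of the sum given next, with LUM at 8.93 and 9.39 TPM. The summed markers of that list went from 626 to 351 TPM in SNU1079 cells and in SSP25 cells from 155 to 193 TPM, and their part in the results was not tested.

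With BETp in both arms, adding mTORi went with lower mRNA of amino acid synthesis and tRNA charging genes, of mTOR's own brakes and of aldo-keto reductases, and with higher mRNA of ribosomal proteins. No gene passed the test on its own: limma called 0 of 16060 genes (0%) at an adjusted p of 0.05, with a smallest adjusted p of 0.0698 for DDIT4. At an unadjusted p under 0.05 there were 276 higher genes (1.72%) and 1564 lower genes (9.74%). By size alone, 48 genes (0.299%) were higher by at least 1.5-fold on the (TPM + 1) scale in both lines and 189 (1.18%) were lower. After quantile normalization these counts were 109 and 105, and after rescaling without the mitochondrial and ribosomal protein genes they were 120 and 178, so the balance towards lower genes depended on the scale. By any amount, 2136 genes (13.3%) were higher and 7247 (45.1%) were lower in both lines. The median difference of all genes tested was −0.12, with −0.14 in SNU1079 and −0.074 in SSP25, and the lists below are read against it. After quantile normalization it was 0.0021, and list medians given after that normalization are read against this value. Less the median of all genes, the serine and one-carbon list stood at −0.22 before and −0.20 after it, and ribosomal proteins at 0.34 and 0.13. Across 10480 genes with a mean of at least 5 TPM, the differences in SNU1079 and SSP25 correlated with r = 0.179, a description over genes that share the libraries of each line.

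**Figure D1:**
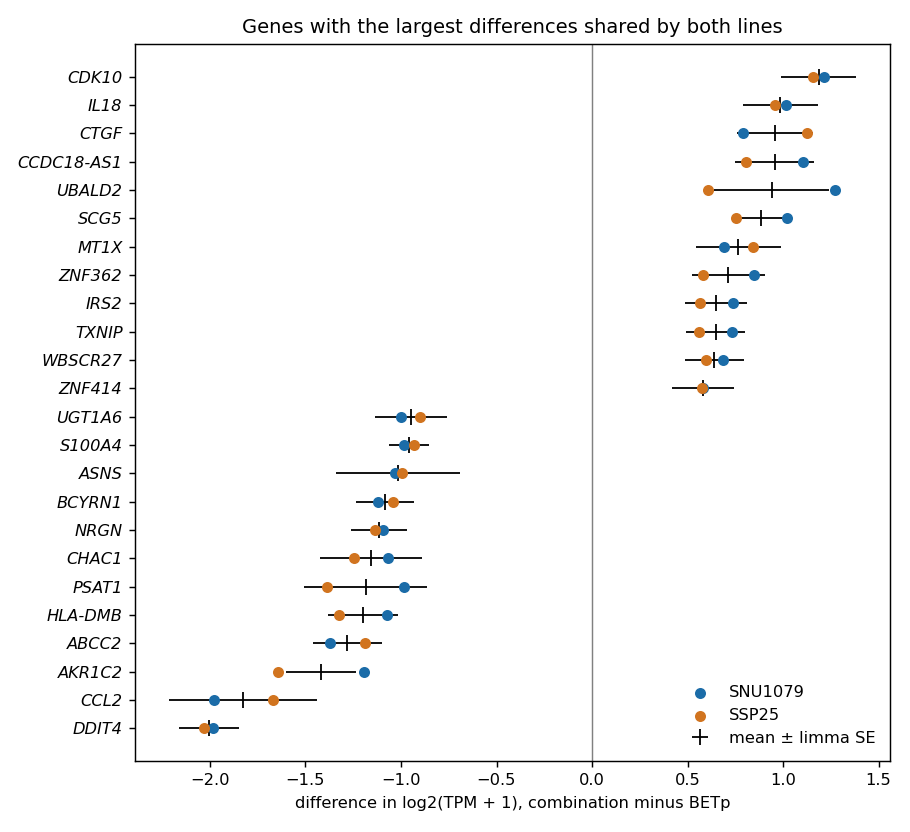
Difference in log2(TPM + 1) between combination and BETp (x axis) for the 24 genes with the largest shared differences among 10026 genes that could be named, 1 point per line, with the mean and limma's SE in black. Genes below a mean of 5 TPM, small RNAs, clone-named transcripts and numbered pseudogenes were left out, among them 149 genes with shared differences of at least 1.5-fold. DDIT4 and CCL2 lie furthest to the left and CDK10 and IL18 furthest to the right, and none of the 24 passed limma's adjusted threshold.

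DDIT4, a stress-induced brake on mTOR complex 1, had the largest shared difference. It lies at chr10:74033678-74035794 (GRCh37, plus strand). Its mRNA went from 84.2 TPM (BETp) to 20.6 TPM (combination) in SNU1079 cells and in SSP25 cells from 65.8 to 15.4 TPM. Lack of overlap between libraries is given here and for several genes below. It was not counted over all genes tested and depends on how alike the 2 lines are. MLXIP, at 78.3% and 88.8% of the BETp level, also had no overlap. For DDIT4 the combination libraries held 24.4% and 23.4% of the BETp level and did not overlap the BETp libraries. The mean difference was −2.01 ± 0.158 (limma SE, n = 2 lines; adjusted p = 0.0698). Among the 11772 genes with at least 5 TPM in 2 libraries the same difference passed (limma adjusted p = 0.0442). It also passed without the vehicle library of SNU1079 (0.0325) or of SSP25 (0.0297), and over all alternatives run its adjusted p ranged from 0.0297 to 1.

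The other brakes mostly stood lower too. Of 15 tested genes listed as brakes or regulators of mTOR complex 1, DDIT4 among them, 12 were lower and 2 higher in both lines. Their median was −0.34, and 5 were lower at an unadjusted limma p under 0.05. After quantile normalization 8 were lower and 2 higher in both lines, with a median of −0.20. SESN2, a sensor of leucine, went from 16.1 to 9.38 TPM in SNU1079 cells and in SSP25 cells from 17.8 to 12.5 TPM. TSC2, a subunit of the TSC complex, was the member furthest the other way, from 36.7 to 37.0 TPM and from 26.9 to 36.0 TPM. The kinase itself, MTOR, went from 13.3 to 9.45 TPM in SNU1079 cells and in SSP25 cells from 24.1 to 22.3 TPM (−0.28 ± 0.144, limma adjusted p = 0.489). On the receptor side, insulin and ERBB signalling is known to be released when mTOR output falls. That list of 19 genes had a median of −0.026, and 0.078 after quantile normalization. Of its members 6 were higher and 7 lower in both lines, against 13.3% and 45.1% of all genes tested. After quantile normalization 11 were higher and 5 lower. IRS2, the adaptor of the insulin receptor, went from 5.82 to 10.4 TPM in SNU1079 cells and in SSP25 cells from 4.94 to 7.78 TPM, the largest difference upward in that list. PIK3R3, a regulatory subunit of PI 3-kinase, went from 4.71 to 1.86 TPM and from 5.34 to 2.4 TPM.

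Serine synthesis stood lower. PSAT1, the aminotransferase of the pathway (chr9:80912041-80945009, GRCh37), went from 98.5 to 49.3 TPM in SNU1079 cells and in SSP25 cells from 179 to 67.8 TPM, with no overlap between combination and BETp libraries (−1.19 ± 0.322, limma adjusted p = 0.345). PSPH, the phosphatase that releases serine, went from 132 to 76.7 TPM in SNU1079 cells and in SSP25 cells from 38.0 to 19.6 TPM (−0.85 ± 0.216). PHGDH, the first enzyme, was near 0 in SNU1079 (0.15 and 0.08 TPM) and went from 65.4 to 18.5 TPM in SSP25. Its level in the SSP25 combination library was 28.3% of that with BETp, so the 3-gene route was measurable as a whole only in SSP25.

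In the wider list of serine synthesis and one-carbon genes, 16 of 20 tested members were lower in both lines and 0 higher, with a median of −0.34 (10 lower, 1 higher and a median of −0.20 after quantile normalization). Members that were named after their values were seen include SHMT2, the mitochondrial enzyme that moves a carbon from serine to folate. It went from 115 to 78.3 TPM in SNU1079 cells and in SSP25 cells from 169 to 104 TPM. MTHFD2, the next mitochondrial step, went from 70.0 to 45.9 TPM and from 91.6 to 48.8 TPM. In the neighbouring lists the medians were −0.28 for the methionine cycle (14 tested, 10 lower in both lines) and −0.27 for asparagine, proline and aspartate synthesis (17 tested, 11 lower). After quantile normalization these medians were −0.13 and −0.15. CBS, the entry to cysteine synthesis from homocysteine, went from 18.7 to 7.69 TPM and from 87.2 to 51.3 TPM.

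**Figure D2:**
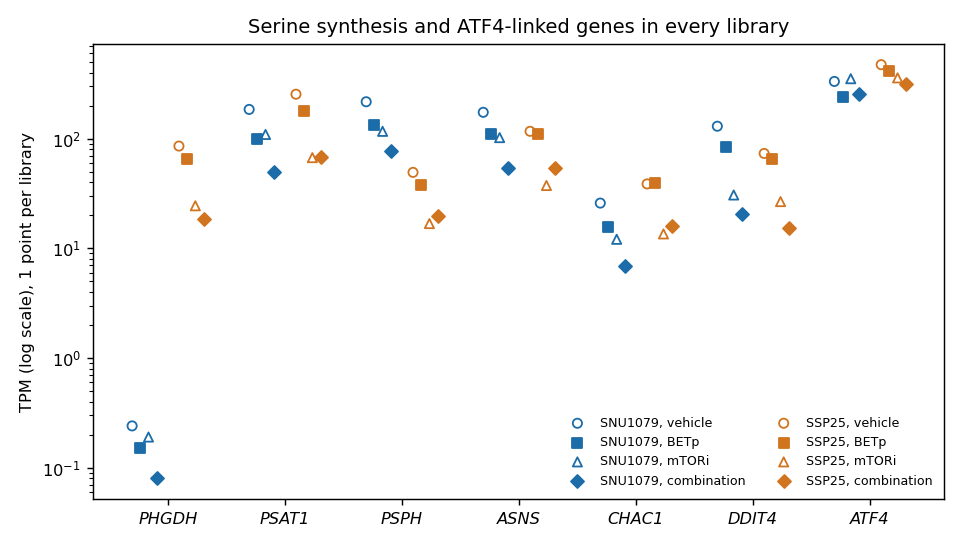
TPM (log axis) of 7 genes of serine synthesis and ATF4 output in every library, blue for SNU1079 and orange for SSP25, filled for the libraries given BETp. The combination (diamonds) lies below BETp (squares) in both lines for PSAT1, PSPH, ASNS, CHAC1 and DDIT4, while ATF4 itself stood at 241 and 255 TPM in SNU1079 cells and in SSP25 cells at 417 and 314 TPM.

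ATF4 mRNA did not move the same way in the 2 lines, at 241 (BETp) and 255 TPM (combination) in SNU1079 cells and in SSP25 cells at 417 and 314 TPM (−0.17 ± 0.169, limma adjusted p = 0.723). Genes that ATF4 is known to drive stood lower in both. ASNS, which makes asparagine (chr7:97480989-97501854, GRCh37), went from 110.4 to 53.4 TPM in SNU1079 cells and in SSP25 cells from 109 to 54.3 TPM, and the libraries did not overlap. CHAC1, which breaks down glutathione (chr15:41245160-41248710, GRCh37), went from 15.5 to 6.88 TPM and from 39.2 to 15.9 TPM (−1.16 ± 0.266, limma adjusted p = 0.337). Both are the genes whose promoter windows held the TGATGNAAN letters printed above. NUPR1, a small stress-induced chromatin protein, went from 82.2 to 49.8 TPM and from 114 to 54.8 TPM.

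The integrated stress response list was mixed, with 12 of 19 tested members lower and 3 higher in both lines and a median of −0.35 (−0.20 after quantile normalization). PPP1R15A, the phosphatase subunit that ends the response, stood the furthest up, from 65.1 to 103 TPM in SNU1079 cells and in SSP25 cells from 112 to 124 TPM. Of the amino acid transporters 15 of 20 tested were lower and 2 higher in both lines, with a median of −0.23 (−0.13 after quantile normalization and −0.47 with a pseudocount of 0.1). SLC7A5, the carrier of leucine and other large amino acids, went from 112 to 52.2 TPM in SNU1079 cells and in SSP25 cells from 146 to 107 TPM.

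The cytosolic tRNA synthetases, which load amino acids on tRNAs, were lower in both lines in 18 of 20 cases and higher in 0, and 12 were lower at an unadjusted p under 0.05. Their median was −0.36 (−0.21 after quantile normalization), with −0.38 in each line. WARS went from 39.9 to 21.2 TPM in SNU1079 cells and in SSP25 cells from 139.7 to 98.0 TPM, and CARS from 38.6 to 21.6 TPM and from 163 to 111 TPM. QARS, for glutamine, was the exception furthest from the rest, at 181 and 215 TPM in SNU1079 cells and in SSP25 cells at 176 and 165 TPM. The 17 mitochondrial synthetases had a median of −0.13, close to that of all genes (0.0028 after quantile normalization).

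**Figure D3:**
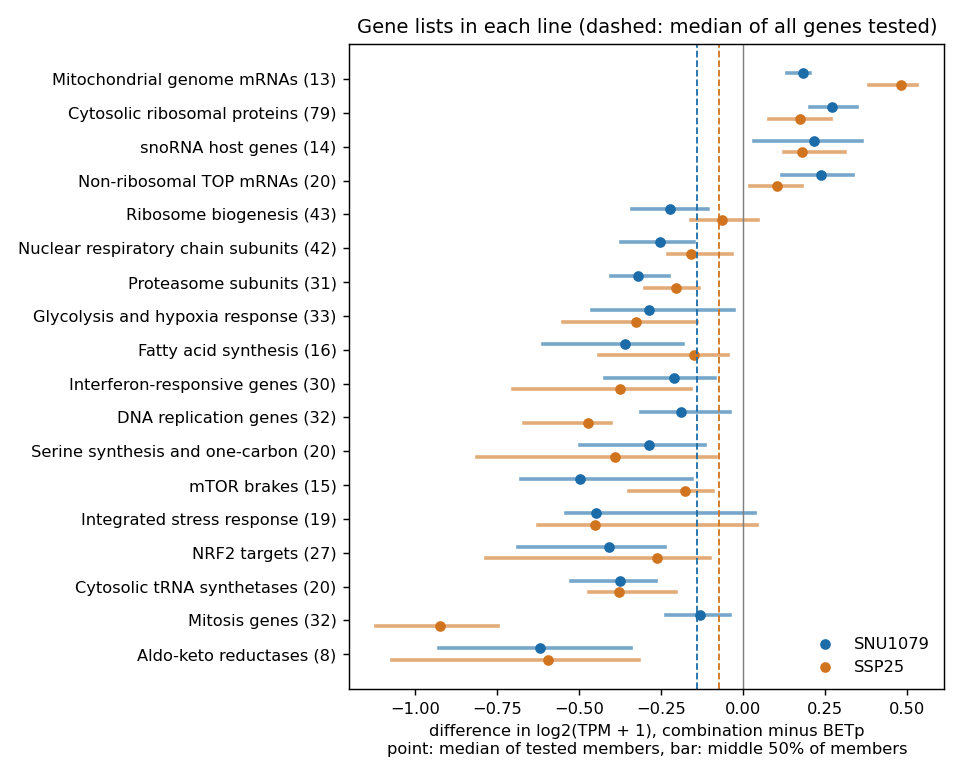
Median difference in log2(TPM + 1) between combination and BETp (points) and the middle 50% of members (bars) for 18 gene lists in each line, with the number of tested members in brackets and the median of all genes tested as dashed lines. The 4 lists at the top lie to the right of 0 in both lines, and mitosis genes show the widest gap between SNU1079 (−0.13) and SSP25 (−0.92).

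Ribosomal protein mRNAs stood higher. Of 79 tested, 69 were higher and 2 lower in both lines, and 48 were higher at an unadjusted p under 0.05, where 1.72% of all genes were. Their median was 0.22 (0.13 after quantile normalization), and none reached 1.5-fold in both lines. RPL23 went from 2282 to 3157 TPM in SNU1079 cells and in SSP25 cells from 1217 to 1587 TPM. RPL13 went from 3829.9 to 5012 TPM and from 1959.7 to 2587 TPM. RPSA, which is also a laminin receptor, stood lower, from 1472 to 1407 TPM and from 915 to 788 TPM. RPS6, the ribosomal protein whose phosphorylation reports mTOR output, went from 1375 to 1893 TPM in SNU1079 cells and in SSP25 cells from 1983 to 2309 TPM (0.34 ± 0.102, limma adjusted p = 0.368).

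The other TOP mRNAs followed, with 15 of 20 higher and 1 lower in both lines and a median of 0.15. TPT1, which encodes a growth-related protein, went from 2725 to 3870 TPM in SNU1079 cells and in SSP25 cells from 2312 to 3278 TPM. This was 142% of the BETp level in each, with no overlap (0.50 ± 0.0771, limma adjusted p = 0.277). EEF1A1, which brings tRNAs to the ribosome, went from 6190 to 8503 TPM and from 8857 to 11343 TPM. CCNG1, a cyclin-like p53 target, went from 107 to 88.0 TPM and from 54.2 to 38.6 TPM. Of 14 snoRNA host genes, 9 were higher and 1 lower in both lines, and the host GAS5 went from 457 to 713 TPM in SNU1079 cells and in SSP25 cells from 199.97 to 286 TPM. The factors that build ribosomes did not follow: 26 of 43 were lower and 4 higher in both lines. Their median was −0.13, and 0.012 after quantile normalization, close to that of all genes each time. Ribosomal protein genes, EEF1A1 and TPT1 have many processed pseudogenes, and how reads shared among copies were counted is not given in the sources used here.

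mRNAs of the mitochondrial genome were higher in both lines in 11 of 13 cases and lower in 0, with a median of 0.31. After quantile normalization 3 were higher in both lines, with a median of 0.11, so the shared count rested on the TPM scale. MT-CO1, a subunit of complex IV, went from 14481 to 18178 TPM in SNU1079 cells and in SSP25 cells from 9865 to 14642 TPM. MT-ND6 went from 2843 to 2665 TPM in SNU1079 cells and in SSP25 cells from 1615 to 2111 TPM. The share of TPM held by the mitochondrial genome went from 17.1% to 19.2% in SNU1079 and from 7.22% to 10.1% in SSP25. Ribosomal proteins went from 17% to 20.6% and from 11.9% to 13.4%, and since TPM sum to the same total, the other genes together took a smaller share.

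Nuclear subunits of the respiratory chain did the opposite, with 37 of 42 lower and 1 higher in both lines and a median of −0.22 (20 lower, 6 higher and a median of −0.087 after quantile normalization). NDUFA9, a subunit of complex I, went from 122 to 75.9 TPM in SNU1079 cells and in SSP25 cells from 126 to 99.7 TPM. Proteins of the mitochondrial ribosome were lower in both lines in 34 of 46 cases, with a median of −0.19, and in 19 with a median of −0.041 after quantile normalization. Proteasome subunits were lower in both lines in 29 of 31 cases and higher in 0, 18 of them at an unadjusted p under 0.05, with a median of −0.25 (−0.11 after quantile normalization). PSMA4 went from 141 to 105 TPM in SNU1079 cells and in SSP25 cells from 274 to 196 TPM.

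**Figure D4:**
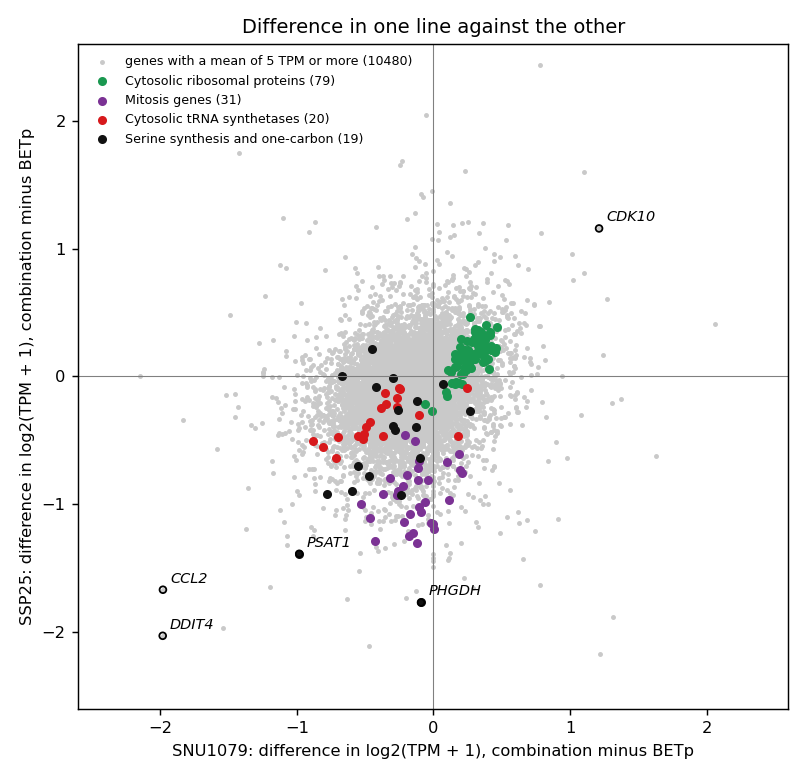
Difference in log2(TPM + 1) between combination and BETp in SNU1079 (x axis) and SSP25 (y axis), 1 grey point per gene with a mean of 5 TPM or more (10480 genes, 25 of them outside the axes at 2.6), with 4 lists in colour. Ribosomal proteins lie to the upper right, tRNA synthetases and serine genes to the lower left, and mitosis genes low in SSP25 and near 0 in SNU1079.

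Glycolysis genes, most of them also targets of HIF1, had a median of −0.27 (−0.19 after quantile normalization), with 22 of 33 lower and 0 higher in both lines. LDHA, which turns pyruvate into lactate, went from 911 to 496 TPM in SNU1079 cells and in SSP25 cells from 3320 to 2006 TPM. GPI, an early glycolytic enzyme, went from 157 to 114 TPM and from 434 to 258 TPM. Fatty acid synthesis was lower in 13 of 16 cases and higher in 0 (median −0.28, −0.14 after quantile normalization), and ELOVL6, which lengthens fatty acids, went from 7.81 to 3.75 TPM and from 39.1 to 23.3 TPM. Cholesterol synthesis had a median of −0.11, close to all genes, which turned to 0.032 after quantile normalization. TXNIP, which restrains glucose uptake, stood higher, from 45.9 to 77.0 TPM in SNU1079 cells and in SSP25 cells from 63.4 to 93.9 TPM, with no overlap (0.65 ± 0.155, limma adjusted p = 0.337).

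Genes of xenobiotic and carbonyl handling made up several of the lowest values. Of 27 tested NRF2 targets, 22 were lower and 2 higher in both lines, 6 of them lower by 1.5-fold or more in both, with a median of −0.36 (−0.27 after quantile normalization). AKR1C2, a reductase of steroids and carbonyls, went from 11.2 to 4.34 TPM in SNU1079 cells and in SSP25 cells from 72.4 to 22.5 TPM (−1.42 ± 0.183, limma adjusted p = 0.277). AKR1B10, a related reductase, went from 18.2 to 12.8 TPM and from 227 to 52.0 TPM. The aldo-keto reductase list had the lowest median of all lists, −0.70 over 8 tested members with 6 lower and 0 higher in both lines, and its members partly belong to the NRF2 list.

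ABCC2, a pump that exports conjugated compounds, went from 13.2 to 4.50 TPM in SNU1079 cells and in SSP25 cells from 34.6 to 14.6 TPM (−1.28 ± 0.181, limma adjusted p = 0.277). UGT1A6, which attaches glucuronic acid, went from 24.9 to 11.9 TPM and from 94.9 to 50.4 TPM. NFE2L2, which encodes NRF2 and was named after its values were seen, stood at 164 and 155 TPM in SNU1079 cells and in SSP25 cells at 63.6 and 60.6 TPM. AKR1C2 is nearly identical to its neighbours AKR1C1 and AKR1C3, and UGT1A6 shares exons with the other UGT1A transcripts, so their separate values are uncertain.

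Further genes with large shared lower values had other roles. CCL2, a chemokine for monocytes (chr17:32582293-32584227, GRCh37), went from 107 to 26.5 TPM in SNU1079 cells and in SSP25 cells from 7.33 to 1.62 TPM (−1.82 ± 0.387, limma adjusted p = 0.337). HLA-DMB, which loads peptides on MHC class II, went from 11.6 to 5.01 TPM and from 5.30 to 1.52 TPM. S100A4, a calcium-binding protein of motile cells, went from 35.3 to 17.3 TPM and from 40.5 to 20.8 TPM. NRGN, a calmodulin-binding protein, went from 10.3 to 4.29 TPM and from 9.29 to 3.68 TPM. BCYRN1, a short non-coding RNA related to Alu repeats, went from 219 to 100.1 TPM and from 211 to 102 TPM, and reads from Alu copies could add to it. In HLA-DMB, S100A4, NRGN and BCYRN1 the combination libraries all lay below the BETp libraries.

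Interferon-responsive genes were lower in both lines in 25 of 30 cases and higher in 0, yet only 1 was lower at an unadjusted p under 0.05 (median −0.33, −0.19 after quantile normalization). IFI44 went from 6.63 to 3.50 TPM in SNU1079 cells and in SSP25 cells from 11.5 to 6.11 TPM. IFIT1, which binds viral RNA, went from 10.5 to 7.69 TPM and from 9.95 to 4 TPM. IRF7, a regulator of the response, had 7.76 and 10.5 TPM in SNU1079 cells, while both SSP25 libraries had 10.7 TPM.

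Among genes with higher values, CDK10, a cyclin-dependent kinase (chr16:89747145-89762762, GRCh37), went from 26.4 to 62.5 TPM in SNU1079 cells and in SSP25 cells from 18.7 to 42.9 TPM, with no overlap (1.19 ± 0.197, limma adjusted p = 0.330). IL18, an inflammatory cytokine of epithelia (chr11:112013976-112034819, GRCh37), went from 42.2 to 86.2 TPM and from 58.2 to 114 TPM, also with no overlap. SCG5, a chaperone of secretory granules, went from 3.74 to 8.61 TPM and from 14.3 to 24.8 TPM, levels that overlap between the groups because the lines differ. CTGF, a secreted matrix protein and YAP target, went from 30.2 to 52.9 TPM and from 11.7 to 26.6 TPM. The YAP target list leaned higher, with 10 of 20 higher and 4 lower in both lines, against 13.3% and 45.1% of all genes tested. Its median was 0.13, and after quantile normalization 0.26 with 14 higher and 2 lower. MT1X, a metal-binding metallothionein with near-identical relatives, went from 152 to 247 TPM and from 70.0 to 126 TPM.

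The remaining genes in that group were UBALD2 (16.1 to 40.2 TPM in SNU1079, 87.2 to 133 TPM in SSP25), CCDC18-AS1 (6.73 to 15.6 and 3.29 to 6.51 TPM) and ZNF362 (4.92 to 9.65 and 4.11 to 6.63 TPM). WBSCR27 went from 13.6 to 22.4 TPM and from 18.5 to 28.5 TPM, and ZNF414 from 8.72 to 13.6 TPM and from 15.6 to 23.7 TPM. CCDC18-AS1 is an antisense RNA; the libraries were strand-specific, but whether counting used strand is not given in the sources used here.

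Among the genes of the degrader's own machinery, BRD2, a BET protein, had 179.96 TPM (BETp) and 166 TPM (combination) in SNU1079 cells, against 164 and 177 TPM in SSP25 cells. BRD3, another BET protein, had 10 and 11.2 TPM in the former and 15.6 and 20.1 TPM in the latter. CRBN, the cereblon gene that ARV825 needs, stood at 16.5 and 19.8 TPM in SNU1079 cells and in SSP25 cells at 18.0 and 17.3 TPM. MYC went from 98.0 to 124 TPM in SNU1079 cells and in SSP25 cells from 31.6 to 43.8 TPM (0.40 ± 0.106, limma adjusted p = 0.337). These are mRNA levels, and degradation acts on the proteins.

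Cell cycle genes set the 2 lines apart. All 32 mitosis genes were lower in SSP25, with a median of −0.92, whereas in SNU1079 26 were lower with a median of −0.13, so that 26 were lower and 0 higher in both lines (median −0.56, −0.40 after quantile normalization). The SNU1079 median was close to that of all genes in that line (−0.14), and after quantile normalization it was 0.047 with 12 members lower, while all 32 were still lower in SSP25. FOXM1, the transcription factor of the G2 and M phases, went from 45.4 to 33.4 TPM in SNU1079 cells and in SSP25 cells from 77.8 to 31.3 TPM. BIRC5, the survivin gene, went from 47.3 to 34.0 TPM and from 57.1 to 25.9 TPM. Of 32 DNA replication genes 28 were lower and 1 higher in both lines, with a median of −0.33 (−0.17 after quantile normalization) made of −0.19 in SNU1079 and −0.47 in SSP25, and 18 were lower in both lines after quantile normalization. MCM10, which helps to start replication forks, went from 13.5 to 7.70 TPM and from 7.02 to 4.09 TPM.

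The line difference could be tested only for mTORi averaged over cells with and without BETp, since each line had 1 library per treatment. limma called 0 of 16060 genes there, with 2 residual degrees of freedom, 2282 genes at an unadjusted p under 0.05 and a smallest adjusted p of 0.0692.

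Without BETp, mTORi went with a different cell cycle pattern in SNU1079. The effect of mTORi alone (mTORi minus vehicle) shares no library with that of mTORi added to BETp. For mitosis genes the median of mTORi alone was 0.73 in SNU1079, with all 32 members higher, and −0.58 in SSP25, with all 32 lower. The added effect was below the effect alone for 32 of 32 members in both lines, whereas 25.2% of all genes tested were below and 22.6% above in both. BIRC5 had 47.8 TPM with vehicle, 71.3 with mTORi, 47.3 with BETp and 34.0 with both drugs in SNU1079, and 85.2, 56.0, 57.1 and 25.9 TPM in SSP25. For DNA replication genes 19 of 32 were below in both lines and 0 above, and the median alone was 0.42 in SNU1079 and −0.42 in SSP25. As the members of each list tend to move together, the 32 genes are not 32 independent observations.

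**Figure D5:**
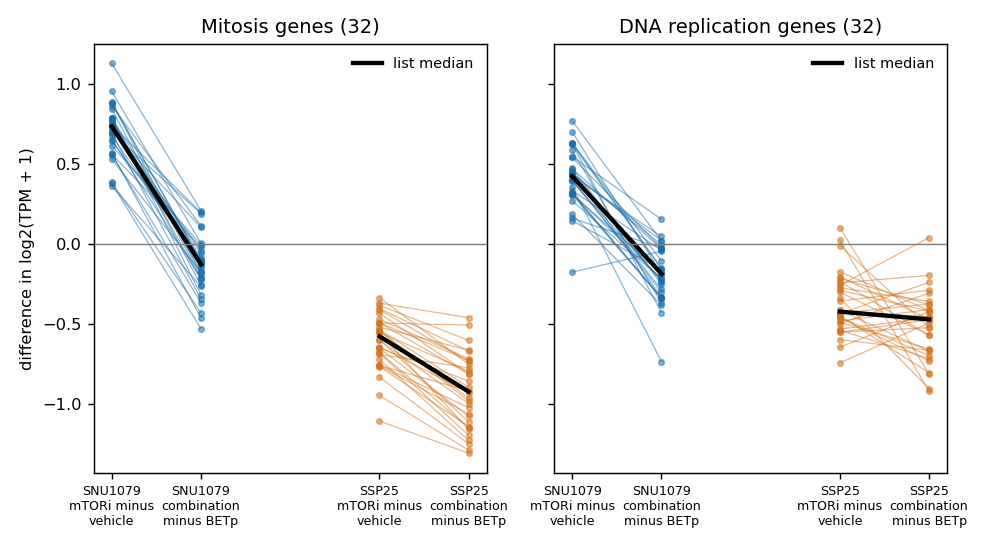
Difference in log2(TPM + 1) for mTORi without BETp (mTORi minus vehicle) and with BETp (combination minus BETp), 1 thin line per gene and a black line for the list median, in SNU1079 (blue) and SSP25 (orange). The medians of the mitosis list went from 0.73 to −0.13 in SNU1079 and from −0.58 to −0.92 in SSP25.

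Tested gene by gene, the difference between mTORi added to BETp and mTORi alone called 0 of 16060 genes in limma, with 322 at an unadjusted p under 0.05 and a smallest adjusted p of 0.066. The genes with the largest differences shared by both lines included SPC25, a kinetochore subunit. It had 14.2 TPM with vehicle, 22.6 with mTORi, 12.6 with BETp and 10.8 with both drugs in SNU1079, and 16.6, 16.9, 13.3 and 6.05 TPM in SSP25. GINS4, of the replication helicase, had 5.21, 8.62, 7.81 and 6.92 TPM in SNU1079 and 10.9, 11.1, 8.63 and 4.09 TPM in SSP25. CCDC18-AS1 had the reverse pattern, with 8.88 TPM with vehicle, 11.5 with mTORi, 6.73 with BETp and 15.6 with both drugs in SNU1079, and 4.32, 3.24, 3.29 and 6.51 TPM in SSP25. RAB30-AS1, an antisense RNA, was also above, at 7.28, 5.73, 6.08 and 10.6 TPM in SNU1079 and 19.4, 12.1, 14 and 15.6 TPM in SSP25. The other 4 genes of that rule, PIGY, CBWD3, LUZP6 and NPIPA7, overlap another gene or have near-identical copies and are not described.

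The medians of mTORi alone and of mTORi added to BETp are set side by side here for other lists, with no test of their difference. Alone it had medians of 0.19 for ribosomal proteins, −0.44 for tRNA synthetases, −0.27 for serine and one-carbon genes, −0.44 for the integrated stress response and −0.47 for NRF2 targets, against 0.22, −0.36, −0.34, −0.35 and −0.36 when added to BETp. Over all genes tested the medians were −0.11 alone and −0.12 when added. For other lists the 2 medians lay further apart. Proteasome subunits had −0.13 alone and −0.25 when added, with 19 of 31 members below in both lines. The snoRNA host genes had 0.045 and 0.17, the insulin and ERBB list −0.24 and −0.026, and cholesterol synthesis 0.0048 and −0.11. DDIT4 stood at 129.8 TPM with vehicle and 30.6 TPM with mTORi in SNU1079 cells and in SSP25 cells at 73.2 and 26.7 TPM. The difference between its 2 effects was −0.27 ± 0.224, where the adjusted p of the difference in limma was 1.00. Across the 10480 genes of at least 5 TPM, the effects with and without BETp correlated with r = 0.336 in SNU1079 and r = 0.393 in SSP25, over genes measured in the same 4 libraries of a line.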

How the data were processed

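RNA was sequenced from 8 strand-specific (dUTP) libraries. The authors deposited gene-level TPM, 1 table per line, on GRCh37 per the labels. Sources used here name neither aligner nor annotation. Columns were assigned from sample titles. Log2(TPM + 1) values of 16060 genes with at least 1 TPM in at least 2 libraries entered a linear model of treatment plus line over all 8 libraries (limma 3.58.1 under R 4.3.3, eBayes with trend), leaving 3 residual degrees of freedom. Tests were two-sided with Benjamini-Hochberg adjustment over all genes and calls at 0.05. Because values are TPM, the count tests named in the submitters' processing notes (DESeq2, edgeR) were not run. Pairing came from the cell line, so each combination library was compared with BETp of its own line. The model was tested on simulated data.

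Members and lists were chosen with earlier results of these data known. Named genes were 12 genes of the study and its drugs, the 12 largest shared differences in each direction at a mean of at least 5 TPM (without small RNAs, clone-named transcripts and numbered pseudogenes), the 2 members of each described list furthest along its median and the 1 furthest against it, 4 genes in each direction opposed between lines, and 4 in each direction where the effects with and without BETp differed most. Lists are described by counts and medians, with no set test. Alternatives were quantile normalization, a pseudocount of 0.1, a 5 TPM filter or none, rescaling without mitochondrial and ribosomal protein genes, robust eBayes, no block, the 4 libraries alone and leaving out each library. GRCh37 positions (GENCODE 44) were matched by symbol for 171 of 185 named genes. Some items covered by the rule for named genes are not reported here.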

Additional observations from a re-analysis of the deposited data

Results flagged for a closer look

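Several genes moved in opposite directions in the 2 lines between combination and BETp, and with 1 library per line and treatment these differences were not tested. CD70, a ligand of the TNF family, stood 0.68 higher (log2 scale) in SNU1079 (1.74 to 3.40 TPM) and at −1.12 in SSP25 (138 to 62.9 TPM). TMEM156 was at 0.62 in SNU1079 (28.0 to 43.5 TPM) and −1.06 in SSP25 (24 to 11 TPM). SYTL4, a factor of vesicle docking, was at 0.84 (2.79 to 5.78 TPM) and −0.66 (12.9 to 7.80 TPM). The antisense RNA ARAP1-AS1 was at 0.78 and −1.63.

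The other way, ADAP1, an Arf regulator, was at −1.13 in SNU1079 (11.9 to 4.91 TPM) and 0.87 in SSP25 (2.89 to 6.11 TPM). SAA2, an acute phase protein that shares reads with SAA1, was at −1.10 in SNU1079 (1.15 to 0 TPM) and 1.24 in SSP25 (679 to 1605 TPM). POLR2J4 was at −0.91 and 1.13 and SLX1B at −0.87 and 1.21, and both have near-identical copies.

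Under mTORi without BETp, all mitosis genes were higher than with vehicle in SNU1079 (median 0.73) and lower in SSP25 (median −0.58). DNA replication genes had medians of 0.42 and −0.42 there. These opposite directions were not tested for the lists.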

How the results depend on the processing

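Depth is unknown, so precision rests on 2 lines with 1 library each. Over 34 named genes, 533 refits kept direction and side of the threshold, 7 reversed and 3 crossed the threshold, all for DDIT4 (−2.01): at a filter of 5 TPM (adjusted p = 0.0442) and without vehicle replicate 1 (0.0325) or 2 (0.0297). BRD2 reversed with quantile normalization (0.14), rescaling (0.10), without BETp replicate 1 (0.018) and without combination replicate 1 (0.12), and ran from −0.13 to 0.12 over left-out libraries. BRD3 reversed without combination replicate 2 (range −0.045 to 0.54), CRBN without BETp replicate 1 (−0.014 to 0.21) and ATF4 without BETp replicate 2 (−0.42 to 0.087). The cause was not tested.

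The count of called genes was 0 under most alternatives, including the fit with no replicate block (0 called, 59 at an unadjusted p under 0.05), so dropping the pairing by line lost most small p-values. The count was 1 (DDIT4) with the filter at 5 TPM, and ran from 0 to 1 when each library was left out: DDIT4 without either vehicle library, and TUG1_1, listed at 0 in both combination libraries, without BETp replicate 2. Calls for the difference between mTORi added and alone were 1 with robust eBayes (CTD-2224J9.4) and ran from 0 to 1 across left-out libraries (TUG1_1 without BETp replicate 2, TMSB4XP6 without mTORi replicate 2 and CTD-2545G14.4 without combination replicate 2). Calls for the line difference were 9 with the filter at 5 TPM. The shared 1.5-fold counts were 186 higher and 514 lower with a pseudocount of 0.1, 16 and 117 with the filter at 5 TPM, 109 and 105 with quantile normalization, and 120 higher after rescaling. The median of all genes was −0.039 with no filter, 0.0021 with quantile normalization and −0.036 after rescaling. Rescaling put the other TOP mRNAs at 0.26, proteasome subunits at −0.14 and nuclear respiratory chain subunits at −0.11.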
